A study of Rattus norvegicus with 12 samples.

Results

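Genes known from lipid-laden and osteoclast-like macrophages, Spp1, Trem2, Tyrobp, Gpnmb, Atp6v0d2, Acp5, Ctsk and Dcstamp, were followed in rat veins grafted into an artery. Which cells of the vein made these RNAs was not measured. The array had probes for 13903 genes, among them 6 of these 8. No probe was matched to Acp5, tartrate-resistant acid phosphatase, or to Dcstamp, a membrane protein of cell fusion. Neither has a value here. The genes had been chosen with their levels on graft days and in unoperated vein known, so their differences from unoperated vein are given as a description, with no test. Their differences between graft days were tested; earlier results from all 12 arrays were known at the choice, so these tests are not independent of it.

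The data are 12 one-colour Agilent arrays from veins of male rats, 3 in each of 4 groups. Day 0 was vein of control rats that had no operation. Days 7, 14 and 28 were counted from surgery in which the external jugular vein was joined into the carotid artery as a bypass. No genotype, strain, age or drug is named in the labels, and no operated rat without a graft was among the groups, so surgery and the arterial position of the vein cannot be told apart. A level is the log2 of the background-corrected intensity of a probe minus the 75th percentile of its array, so 0 marks that percentile and a difference of 1 is a 2-fold difference. Levels of different probes cannot be set against each other. Each of the 6 measured genes had 1 probe, which was well above background on 12 of 12 arrays and saturated on none.

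Osteopontin (Spp1), Gpnmb and the receptor Trem2 are known from macrophages that have taken up lipid, and Atp6v0d2, Ctsk, Acp5 and Dcstamp from osteoclasts, the multinucleated bone-resorbing cells that arise from the same myeloid lineage. Trem2 binds lipids and lipoproteins at the cell surface and signals through its adaptor Tyrobp (DAP12), whose phosphorylated tail recruits the kinase Syk. Osteoclasts form under the ligand Tnfsf11 (RANKL) and the growth factor Csf1, fuse, pump acid through the vacuolar proton pump and digest collagen with cathepsin K (Ctsk). In injured and grafted vessels macrophages take part in clearing dead cells and lipid and in remodelling matrix.

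The start regions of 4 measured genes are shown because all 4 shared the step from day 0 to the graft days on which they were chosen, although over the graft arrays alone they did not all move together (r = -0.80 between Ctsk and Spp1 and -0.22 between Trem2 and Spp1, over 9 arrays, as a description); each runs from 250 bases before to 50 bases after the annotated start (RefSeq, build GRCr8); no region was matched for Tyrobp or Atp6v0d2. Capitals mark each match, on either strand, to 5 short motifs that were searched: CACGTG and TCATGTG (E-box elements of the MITF and TFE family), TGANTCA (AP-1), GAGGAA (PU.1 and other ETS factors) and TATAAA (the TATA element). Ctsk lies at chr2:185747298-185747597 on the plus strand, Gpnmb at chr4:79340878-79341177 on the plus strand, Spp1 at chr14:5619755-5620054 on the minus strand and Trem2 at chr9:20151730-20152029 on the minus strand.
Spp1: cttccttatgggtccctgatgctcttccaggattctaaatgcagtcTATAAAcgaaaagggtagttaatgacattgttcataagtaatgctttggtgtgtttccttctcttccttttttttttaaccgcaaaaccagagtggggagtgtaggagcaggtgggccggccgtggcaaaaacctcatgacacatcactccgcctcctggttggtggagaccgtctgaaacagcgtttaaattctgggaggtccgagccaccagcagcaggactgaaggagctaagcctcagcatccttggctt
Trem2: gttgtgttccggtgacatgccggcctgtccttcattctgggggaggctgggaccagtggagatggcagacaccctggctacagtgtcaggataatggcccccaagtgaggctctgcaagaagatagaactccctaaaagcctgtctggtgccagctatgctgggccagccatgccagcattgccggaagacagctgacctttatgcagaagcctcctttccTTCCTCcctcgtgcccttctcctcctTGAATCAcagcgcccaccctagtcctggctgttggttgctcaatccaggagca
Gpnmb: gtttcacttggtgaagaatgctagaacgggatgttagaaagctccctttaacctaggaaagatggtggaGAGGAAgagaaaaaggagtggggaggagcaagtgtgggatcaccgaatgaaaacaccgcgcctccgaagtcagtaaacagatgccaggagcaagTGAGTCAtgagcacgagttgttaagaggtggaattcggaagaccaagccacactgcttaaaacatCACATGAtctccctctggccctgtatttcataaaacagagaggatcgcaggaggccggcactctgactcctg
Ctsk: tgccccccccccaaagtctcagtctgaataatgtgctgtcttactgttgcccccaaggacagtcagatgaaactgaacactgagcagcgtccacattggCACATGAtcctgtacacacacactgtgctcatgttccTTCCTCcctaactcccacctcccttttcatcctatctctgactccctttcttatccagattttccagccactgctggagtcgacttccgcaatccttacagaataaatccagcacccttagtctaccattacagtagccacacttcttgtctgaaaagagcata

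TCATGTG was found in Gpnmb at position -22 (the base before the start is -1) and in Ctsk at -151, in both as its reverse complement cacatga, and 3.56% of 33469 rat start regions of this length hold it. TGANTCA was found in Gpnmb as tgagtca at -87 and in Trem2 as tgaatca at -3 (7.33% of regions). GAGGAA was found in Gpnmb, Trem2 and Ctsk (27.6% of regions) and TATAAA in Spp1 at -204 (14.2%). CACGTG was in none of the 4 (6.42% of regions). No 2 searched motifs overlapped in these regions, and a match is a stretch of letters, not a shown binding site. The 6 measured genes lie on 6 different chromosomes.

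All 6 measured genes stood higher on every graft array than on any day 0 array, at each of the 3 graft days. The genes were chosen on this contrast. The share of all genes without overlap was not counted, here or in the later comparisons of arrays. Spp1 differed most at day 7 and Atp6v0d2 and Trem2 most at day 14, while Ctsk differed least throughout. In whole vein the number of cells of a type and the RNA per cell cannot be told apart. Day 0 replicate 1 was the highest day 0 array for Spp1, Trem2, Tyrobp and Ctsk, and day 0 replicate 3 was the highest for Gpnmb and Atp6v0d2. The mean of 15 pan-macrophage markers also varied at day 0, at 1.23, -0.81 and -0.84 on its 3 arrays.

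**Figure D1:**
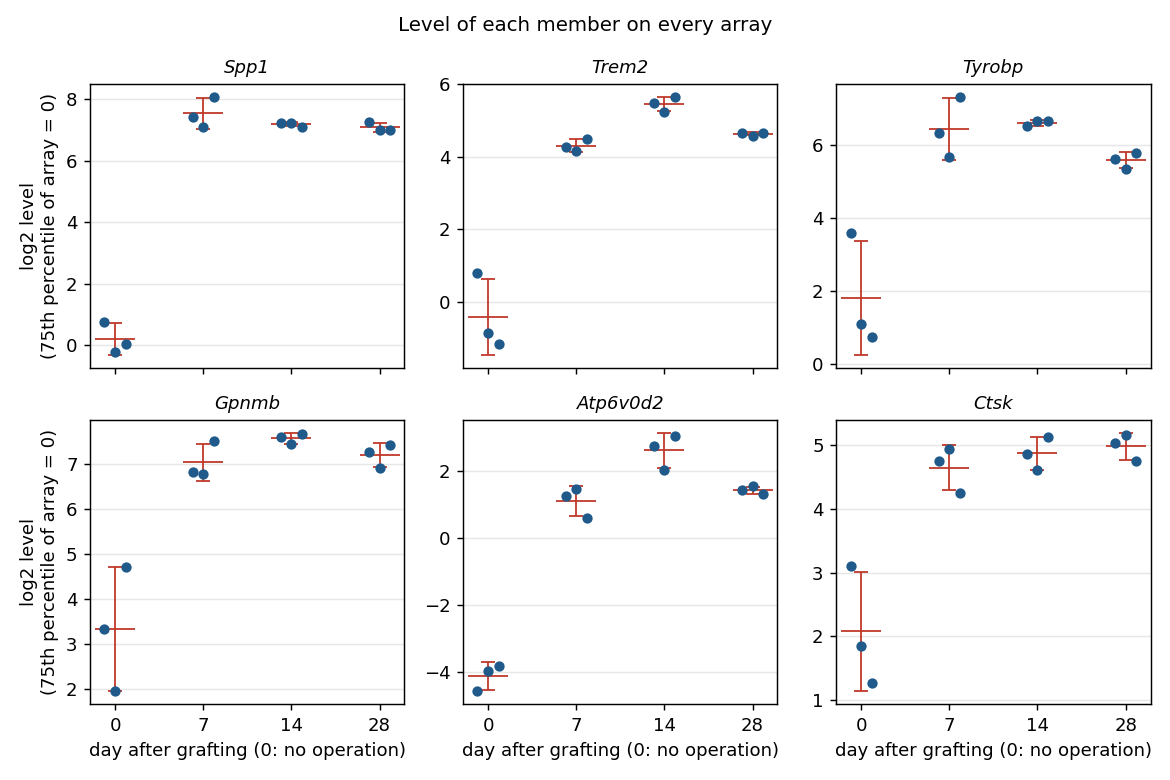
Log2 level of each measured gene, relative to the 75th percentile of the array (vertical axis, its range set per panel), on each of 3 arrays (blue points) at days 0, 7, 14 and 28, with the mean and SD of the 3 in red. All graft arrays lie above all day 0 arrays for each gene; Trem2 and Atp6v0d2 peak at day 14, and the day 0 points of Tyrobp and Gpnmb are spread widely, with SDs of 1.55 and 1.38.

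Spp1 encodes osteopontin, a secreted phosphoprotein that binds integrins and Cd44. Its level was 0.76, -0.23 and 0.04 on the day 0 arrays, 7.43, 7.09 and 8.09 at day 7, 7.22, 7.22 and 7.10 at day 14 and 7.25, 7.00 and 7.00 at day 28. The graft days overlapped one another, and day 0 lay far below them. Against day 0 the fitted difference was 7.35 at day 7 (163-fold), 6.99 at day 14 (127-fold) and 6.89 at day 28 (119-fold), each with a standard error of 0.29. Ordered by the size of the rise among 12355 tested genes, Spp1 stood at place 3 at day 7, place 5 at day 14 and place 16 at day 28.

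Trem2 encodes the lipid-binding receptor. It was at 0.79, -0.86 and -1.18 on the day 0 arrays, 4.25, 4.15 and 4.50 at day 7, 5.48, 5.24 and 5.64 at day 14 and 4.65, 4.58 and 4.65 at day 28. The 3 arrays of day 14 were the highest of the 12, and day 7 was the lowest graft day. The difference from day 0 was 4.72 at day 7 (26.3-fold), 5.87 at day 14 (58.5-fold) and 5.04 at day 28 (33.0-fold), each with a standard error of 0.41.

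Tyrobp encodes the adaptor that Trem2 shares with several other myeloid receptors. Its level was 3.59, 1.10 and 0.74 on the day 0 arrays, 6.31, 5.66 and 7.32 at day 7, 6.50, 6.65 and 6.65 at day 14 and 5.61, 5.33 and 5.78 at day 28. Day 7 was the most spread of the graft days, with its highest array above and its lowest array below those of day 14. The difference from day 0 was 4.62 at day 7 (24.6-fold), 4.80 at day 14 (27.8-fold) and 3.77 at day 28 (13.6-fold), each with a standard error of 0.65.

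Gpnmb encodes a transmembrane glycoprotein of late endosomes and lysosomes. It was at 3.35, 1.95 and 4.72 on the day 0 arrays, 6.84, 6.78 and 7.51 at day 7, 7.60, 7.45 and 7.68 at day 14 and 7.27, 6.91 and 7.44 at day 28. The unoperated veins ranged over 2.76, more than any graft day. The difference from day 0 was 3.70 at day 7 (13.0-fold), 4.24 at day 14 (18.9-fold) and 3.87 at day 28 (14.6-fold), each with a standard error of 0.54.

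Atp6v0d2 encodes the d2 subunit of the membrane sector of the proton pump, the form abundant in osteoclasts. Its level was -4.58, -3.97 and -3.82 on the day 0 arrays, 1.26, 1.47 and 0.61 at day 7, 2.76, 2.05 and 3.07 at day 14 and 1.43, 1.55 and 1.33 at day 28. Every day 14 array was above every other array. The difference from day 0 was 5.24 at day 7 (37.7-fold), 6.75 at day 14 (108-fold) and 5.56 at day 28 (47.2-fold), each with a standard error of 0.32. By size of rise it stood at place 52 at day 7, place 7 at day 14 and place 43 at day 28.

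Ctsk encodes the collagen-degrading protease cathepsin K, which fibroblasts also make. It was at 3.11, 1.85 and 1.28 on the day 0 arrays, 4.76, 4.94 and 4.26 at day 7, 4.87, 4.61 and 5.14 at day 14 and 5.04, 5.16 and 4.75 at day 28. The graft days overlapped, and the closest day 0 array was 1.14 below the lowest graft array. The difference from day 0 was 2.57 at day 7 (5.95-fold), 2.80 at day 14 (6.94-fold) and 2.91 at day 28 (7.49-fold), each with a standard error of 0.40. Markers of fibroblasts, 4 of 7 with a probe, averaged 3.92 to 4.85 on day 0 arrays, 4.98 to 5.64 at day 7, 4.99 to 5.16 at day 14 and 5.07 to 5.16 at day 28, and their part in the Ctsk difference was not tested.

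**Figure D2:**
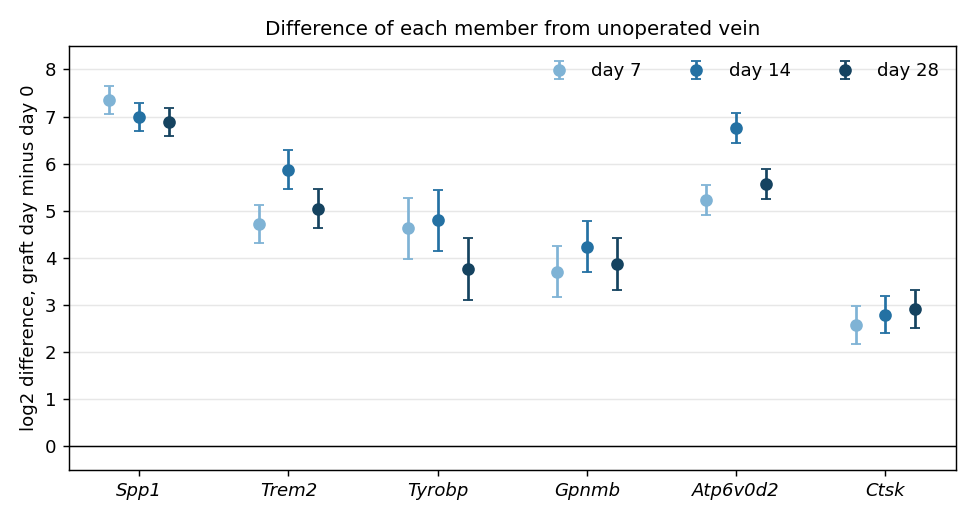
Fitted log2 difference of each measured gene, graft day minus day 0 (vertical axis), at days 7, 14 and 28, with 1 standard error from the limma fit over 12 arrays. Spp1 has the highest value at each day, from 6.89 to 7.35, and Ctsk the lowest, from 2.57 to 2.91.

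The median difference of the 6 genes from day 0 was 4.67 at day 7, 5.33 at day 14 and 4.45 at day 28, beside medians over the 12355 tested genes of 0.00, 0.04 and 0.07. At least a 2-fold rise was shown by 6 of 6 at each day. In either direction, rises and falls together, 32.6%, 37.0% and 33.4% of tested genes differed by at least 2-fold. As the genes were picked on this contrast, these figures only describe them. At an adjusted p under 0.05 (limma, Benjamini-Hochberg over 21063 probes), 17.7% of probes were higher and 15.4% lower at day 7 than at day 0, 20.1% higher and 17.4% lower at day 14, and 17.4% higher and 16.5% lower at day 28.

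Among the 3 graft days, Atp6v0d2 was higher at day 14 than at day 7, and this was the only call among the members in 3 comparisons. It averaged 2.63 ± 0.52 at day 14 and 1.11 ± 0.45 at day 7 (SD, n = 3 each), a difference of 1.51 ± 0.32 (standard error; 2.86-fold, 95% interval 1.75 to 4.66) with a limma adjusted p of 0.0296. All 3 day 14 values lay above all 3 day 7 values. Over all probes 1.38% were called higher and 1.88% lower at day 14 than at day 7, so 1 of 6 members stood beside a background of 1.38%. The call was lost in 6 of 12 fits that left out a single array: adjusted p was 0.0966, 0.0542 and 0.0509 without day 7 replicate 1, 2 or 3, 0.127 and 0.136 without day 14 replicate 1 or 3, and 0.0576 without day 28 replicate 1. It was also lost with normexp background correction (adjusted p = 0.0596), when only the arrays of the 2 days were fitted (adjusted p = 0.0745) and with the slide as a fixed term (adjusted p = 0.361).

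The nearest result was Trem2, which averaged 5.45 ± 0.20 at day 14 and 4.30 ± 0.18 at day 7 (SD, n = 3 each). The difference of 1.15 ± 0.41 had a limma adjusted p of 0.201, while every day 14 value lay above every day 7 value. It was called when only those 6 arrays were fitted (adjusted p = 0.0312) and when day 0 replicate 1 was left out (adjusted p = 0.0073). Both Trem2 and Atp6v0d2 had an unadjusted p under 0.05 for this comparison. For the other four the differences were 0.54 for Gpnmb (95% interval -0.67 to 1.74), 0.22 for Ctsk (-0.67 to 1.11), 0.17 for Tyrobp (-1.27 to 1.62) and -0.36 for Spp1 (-1.01 to 0.30), with adjusted p from 0.616 to 0.926.

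At day 28 against day 14 no member was called higher or lower by limma, beside 2.40% of probes called higher and 2.08% lower, and 1 member, Atp6v0d2, had an unadjusted p under 0.05. Atp6v0d2 averaged 1.44 ± 0.11 at day 28 and 2.63 ± 0.52 at day 14 (SD, n = 3 each), a difference of -1.19 ± 0.32 with an adjusted p of 0.0625. Trem2 averaged 4.63 ± 0.04 at day 28 and 5.45 ± 0.20 at day 14, a difference of -0.83 ± 0.41 with an adjusted p of 0.260 (limma, n = 3 each). Tyrobp averaged 5.57 ± 0.22 at day 28 and 6.60 ± 0.08 at day 14, a difference of -1.03 ± 0.65 with an adjusted p of 0.378 (limma, n = 3 each). For these 3 genes all day 28 values lay below all day 14 values, as they did for Gpnmb, by a gap of 0.01. The arrays of the same days overlapped for Spp1 and Ctsk. The share of all genes separated in this way was not counted. With only the 6 arrays of these days in the fit, limma called all 3 lower at day 28, at an adjusted p of 0.0213 for Atp6v0d2, 0.00798 for Trem2 and 0.00563 for Tyrobp. That fit called 3411 of all 21063 probes lower and 2942 higher. Left out singly, day 0 replicate 1, day 0 replicate 3 or day 7 replicate 3 brought Atp6v0d2 to adjusted p values of 0.0418, 0.0445 and 0.0299, and day 0 replicate 1 brought Trem2 to 0.0231.

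Spp1 and Ctsk moved least between these days, by -0.10 (95% interval -0.75 to 0.56) and 0.11 (-0.78 to 1.00). At day 28 against day 7 no member was called by limma and none had an unadjusted p under 0.05, beside 0.75% of probes called higher and 1.03% lower. The differences ran from -0.86 for Tyrobp to 0.33 for Ctsk. Trem2 arrays of the 2 days did not overlap, with a gap of 0.08 and a difference of 0.33.

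**Figure D3:**
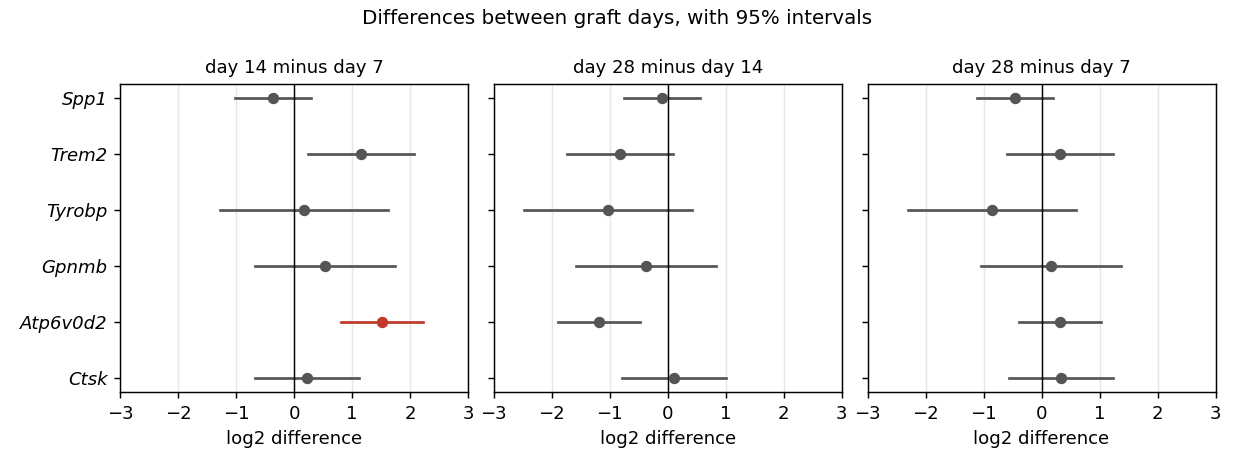
Fitted log2 difference of each measured gene between graft days (horizontal axis, later day minus earlier day), with its 95% interval from the limma fit over 12 arrays. Atp6v0d2 at day 14 minus day 7 (red, 1.51) is the called value; grey values were not called.

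Arrays were assigned to 4 slides by shared scan time, as no slide number was read. These slides did not hold all days. Slide 2 held 1 day 14 array and 3 day 7 arrays. Day 14 minus the day 7 mean was 1.64 for Atp6v0d2, 1.18 for Trem2 and 0.56 for Gpnmb, with no overlap. It was 0.22 for Ctsk, 0.08 for Tyrobp and -0.32 for Spp1, with overlap. On slide 1, the mean of 2 day 28 arrays was set against that of 2 day 14 arrays. Day 28 minus day 14 was -1.07 for Atp6v0d2, -0.83 for Trem2, -1.18 for Tyrobp and -0.47 for Gpnmb, with no overlap. It was -0.04 for Spp1 and 0.23 for Ctsk, with overlap. On slide 3, 1 day 28 array stood above the mean of 2 day 0 arrays by 6.73 for Spp1, 4.69 for Trem2, 3.44 for Tyrobp, 4.79 for Gpnmb, 5.60 for Atp6v0d2 and 2.27 for Ctsk. No slide held both a day 7 or day 14 array and a day 0 array, and slide 4 held 1 day 0 array alone.

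Markers listed as pan-macrophage, although not all restricted to macrophages, rose with the members. Of 16 such markers, 14 were called higher at day 7, 15 at day 14 and 13 at day 28 than at day 0, and none lower (limma; Cd68 was fitted without day 0 replicate 3, where its spot was an outlier). Cd163, the scavenger receptor of haemoglobin, was well above background on only 3 arrays, none of them of day 0. The mean of 15 markers, Cd163 among them and Cd68 left out for its missing value, was -0.14 ± 1.18 at day 0, 3.00 ± 0.44 at day 7, 3.29 ± 0.13 at day 14 and 2.54 ± 0.05 at day 28 (SD, n = 3 each). Without Cd163 the mean of the other 14 was 0.43 ± 1.26 at day 0, 3.73 ± 0.32 at day 7, 4.15 ± 0.14 at day 14 and 3.19 ± 0.17 at day 28, a setting chosen after seeing the data.

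Other cell types also differed between the groups. Bone-forming and cartilage cell markers, 6 of 8 with a probe, averaged -3.40 to -2.70 on day 0 arrays, -2.51 to -2.15 at day 7, -2.62 to -2.23 at day 14 and -2.38 to -1.99 at day 28, so no graft array overlapped day 0. Of these 6, 1 was called higher at day 7, 1 at day 14 and 2 at day 28, and 0, 1 and 1 lower. Phex, an endopeptidase of bone-forming cells, rose by 2.46, 2.15 and 3.01 (limma adjusted p = 0.00652, 0.0112 and 0.00251). Phex was well above background on 1 of 3 day 0 arrays. The marker called lower was Sp7, with differences from day 0 of -1.12 at day 14 and -1.26 at day 28 (limma adjusted p = 0.0101 and 0.00680). T and NK cell markers, 8 of 8 with a probe, averaged -2.24 to -1.41 on day 0 arrays, -0.16 to 0.53 at day 7, a median of 0.07 at day 14 and -1.04 to -0.72 at day 28. Every graft array was above day 0 for this list, with 6 of 8 called higher at day 7, 7 at day 14 and 4 at day 28. Smooth muscle markers, 5 of 7 with a probe, were present in all veins and averaged 6.12 to 6.98 on day 0 arrays, 3.36 to 3.95 at day 7, 2.72 to 3.39 at day 14 and 3.88 to 4.14 at day 28, with 5 of 5 called lower than at day 0 on each graft day. Endothelial markers averaged 0.86 to 1.88 at day 0, -0.56 to 0.02 at day 7, 0.35 to 0.51 at day 14 and 0.64 to 1.60 at day 28. Skeletal muscle markers averaged -1.76 to -1.04 at day 0, -0.36 to 0.05 at day 7, -0.71 to 2.98 at day 14 and 2.44 to 6.70 at day 28, with 6 of 6 called higher at day 28. The part of these shifts in the members' levels was not tested.

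Each level was then set against the macrophage marker mean on the same array. Some of these markers, such as Ptprc, are not restricted to macrophages, so the scale is not a level per macrophage. The part of other leukocytes in it was not tested. Spp1, Trem2, Tyrobp and Atp6v0d2 stayed higher on every graft array than on every day 0 array. Gpnmb and Ctsk did not. The Spp1 difference from the mean was 0.33 ± 0.71 at day 0, 4.54 ± 0.08 at day 7, 3.89 ± 0.19 at day 14 and 4.54 ± 0.12 at day 28 (SD, n = 3 each). For Trem2 it was -0.28 ± 0.20 at day 0, 1.30 ± 0.26 at day 7, 2.16 ± 0.07 at day 14 and 2.08 ± 0.02 at day 28. For Tyrobp it was 1.94 ± 0.39 at day 0, 3.43 ± 0.41 at day 7, 3.31 ± 0.15 at day 14 and 3.03 ± 0.18 at day 28.

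On this scale Atp6v0d2 lay at -3.98 ± 1.58 at day 0, -1.89 ± 0.88 at day 7, -0.67 ± 0.40 at day 14 and -1.11 ± 0.15 at day 28, its lowest graft array at -2.88 and its highest day 0 array at -2.98. That gap of 0.10 was 0.02 on the mean without Cd163, far below the day 0 SD of 1.58, while on that mean Spp1, Trem2 and Tyrobp kept gaps of 2.44, 1.02 and 0.52. Gpnmb was at 3.48 ± 1.83 at day 0, 4.04 ± 0.08 at day 7, 4.28 ± 0.03 at day 14 and 4.66 ± 0.22 at day 28, and 1 day 0 array, at 5.56, was above all graft arrays. Ctsk was at 2.22 ± 0.39 at day 0, 1.65 ± 0.79 at day 7, 1.58 ± 0.13 at day 14 and 2.44 ± 0.25 at day 28, so its difference from day 0 turned negative at days 7 and 14. Scaled this way no member differed between graft days by limma, the Atp6v0d2 difference between day 14 and day 7 being 1.22 with an adjusted p of 1.00.

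**Figure D4:**
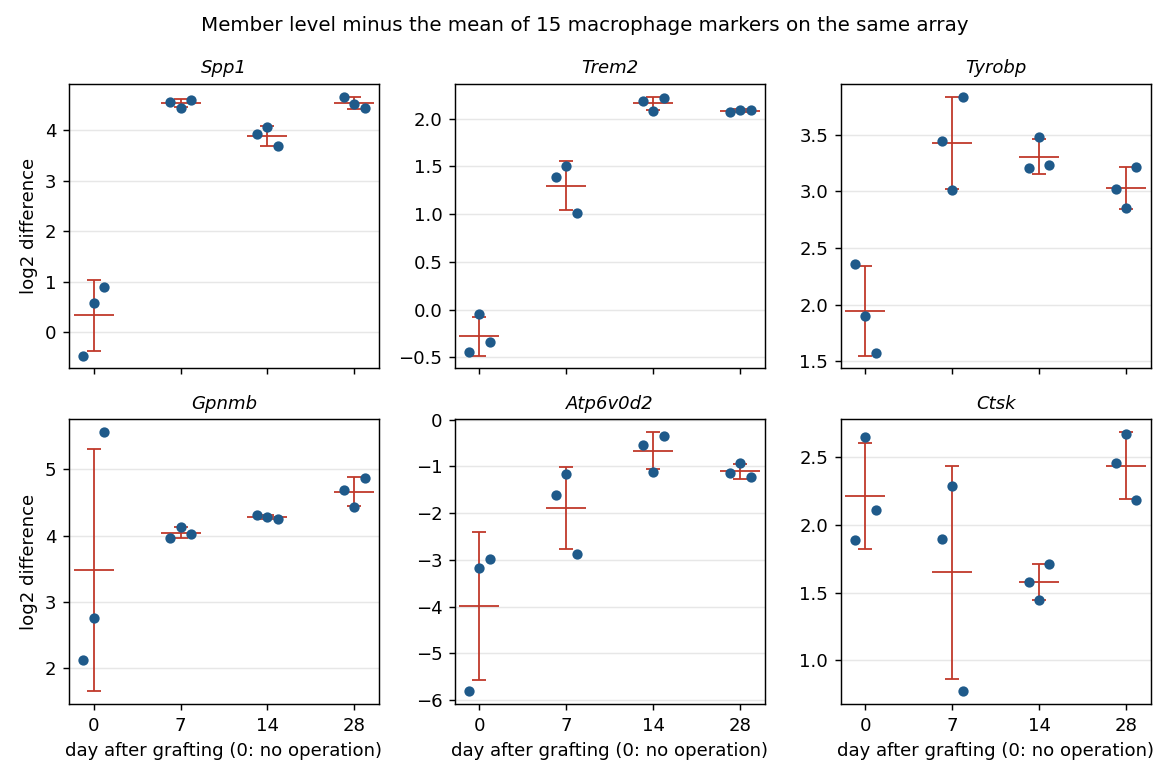
Level of each measured gene minus the mean of 15 pan-macrophage markers on the same array (log2, vertical axis, its range set per panel), for 3 arrays (blue points) at days 0, 7, 14 and 28, with mean and SD in red. Spp1, Trem2, Tyrobp and Atp6v0d2 stay above all day 0 arrays; for Ctsk the means of days 7 and 14, 1.65 and 1.58, lie below that of day 0, 2.22.

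Genes that work beside the members were followed in 5 lists of 100 genes in all, of which 75 were measured. The lists were chosen with earlier results of these data known, so their counts describe them and are no independent test. At day 14, 45 of the 75 were higher and 4 lower than at day 0, beside 20.1% and 17.4% of all probes; at day 7 the counts were 43 and 4, and at day 28 they were 44 and 2. With the slide as a fixed term the higher counts were 0 at day 7, 20 at day 14 and 16 at day 28. That setting called 36, 631 and 736 of all 21063 probes higher at those days. Scaling to the macrophage mean lowers every gene by 3.14 at day 7, 3.43 at day 14 and 2.68 at day 28 relative to day 0. Scaled so, 6, 4 and 4 of the 75 were higher and 51, 50 and 44 lower at those days. Of all 21063 probes, 183, 156 and 214 were then higher and 19280, 19643 and 18650 lower.

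Of 24 genes of osteoclast differentiation and fusion, 15 were tested, and 9 rose at day 7, 10 at day 14 and 10 at day 28, with none called lower (median differences 1.69, 1.84 and 1.53). Mmp9, the gelatinase of osteoclasts and of neutrophils and macrophages, was higher by 4.61 ± 0.76 at day 14 (24.4-fold, limma adjusted p = 0.00109). Neutrophil markers, 3 of 6 with a probe, averaged -4.04 to -1.76 on day 0 arrays, -0.92 to 2.56 at day 7, 0.30 to 0.53 at day 14 and a median of -2.36 at day 28, and their part in the Mmp9 difference was not tested. Tnfsf11 was well above background on all 9 graft arrays and on no day 0 array. Its day 14 level was at least 2.41-fold above that of day 0. The limma adjusted p of 2.12e-05 belongs to the fitted difference from the dim day 0 values, not to this bound. That difference was not called with normexp background correction (adjusted p = 0.816). The bound sets the mean of the day 14 arrays against the lowest signal well above background on each day 0 array. Src, the kinase of the osteoclast's ruffled border, rose by 1.62 ± 0.18 and Csf1 by 1.54 ± 0.33 at day 14.

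Tnfrsf11b (osteoprotegerin), the decoy receptor of Tnfsf11, rose by 2.86 ± 0.56 at day 28 (7.28-fold, limma adjusted p = 0.00362), and its day 14 difference was 1.31 ± 0.56 (adjusted p = 0.0884). That day 14 value was called without day 7 replicate 3 (adjusted p = 0.0300). The calcitonin receptor Calcr was not well above background on enough arrays to be tested, and no probe was matched to Tnfrsf11a (RANK), Nfatc1 or Ocstamp. Several genes that define the osteoclast therefore have no value here, and neither nuclei nor lipid was measured.

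Of 27 genes of acid secretion and the lysosome, 23 were tested: 10 rose and 1 fell at day 7, 11 rose and 1 fell at day 14, and 9 rose and 1 fell at day 28 (median differences 0.61, 0.69 and 0.58). Tcirg1, the a3 subunit of the pump, rose by 3.06 ± 0.47 at day 14 (8.33-fold, limma adjusted p = 0.000726), and the lysosomal protease Ctsb by 2.60 ± 0.54. Atp6v0d1, the ubiquitous counterpart of Atp6v0d2, differed by 0.69 ± 0.34 at day 14 (limma adjusted p = 0.138), and was called without day 0 replicate 1 (adjusted p = 0.0303). Clcn7, the chloride exchanger that accompanies the pump, fell by 1.62 on the log2 scale at day 14 (limma adjusted p = 0.0218), a call lost without day 0 replicate 3, day 14 replicate 1 or day 14 replicate 3 (adjusted p between 0.0539 and 0.0756). Atp6v0c, the ring subunit, rose by 0.63 ± 0.21 with an adjusted p of 0.0386. That call was lost in 9 of 12 omissions of a single array, all but those of day 0 replicate 3 and day 7 replicates 2 and 3 (adjusted p up to 0.116).

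Of 24 genes of lipid uptake, storage and export, 20 were tested: 11 rose and 2 fell at day 7, 11 rose and 2 fell at day 14, and 10 rose and 1 fell at day 28 (median differences 0.92, 1.36 and 1.14). Olr1, a scavenger receptor for oxidized lipoprotein, was higher by 4.94 ± 1.16 at day 14 (30.7-fold, limma adjusted p = 0.00751), with 1 of 3 day 0 arrays well above background. Soat1, which esterifies cholesterol for storage, rose by 4.16 ± 0.29 (17.9-fold, adjusted p = 6.86e-06) and Apoe, a lipoprotein ligand of Trem2 and carrier of cholesterol, by 3.46 ± 0.34 (adjusted p = 4.90e-05). Fabp4, a fatty acid carrier abundant in adipocytes and capillary endothelium, fell by 1.73 at day 14 and Cd9, a tetraspanin, fell by 0.69. Cd9 was not called after quantile normalization (-0.13, adjusted p = 0.747). Adipocyte markers averaged -5.21 to -4.51 on day 14 arrays and 0.42 to 1.38 on day 0 arrays, and their part in the Fabp4 difference was not tested.

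Of 18 genes of Trem2 and Tyrobp signalling, including receptors that share the adaptor, 13 were tested: 12 rose at day 7, 12 at day 14 and 13 at day 28, with none called lower (median differences 3.34, 3.50 and 2.64). Clec5a, another receptor that signals through Tyrobp, rose by 5.57 ± 0.53 at day 14 (47.5-fold, limma adjusted p = 4.50e-05), with 2 of 3 day 0 arrays well above background. The kinase Btk rose by 4.72 ± 0.40 (26.4-fold) and Syk by 1.98 ± 0.37 (3.93-fold). The adaptor Grb2, which most cells use, rose by 0.57 ± 0.16. The Grb2 call was lost without day 0 replicate 2, day 14 replicate 1 or day 14 replicate 3 (adjusted p between 0.0513 and 0.0830).

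Of 9 receptors of osteopontin, 5 were tested and no probe was matched to Itgav or Itgb3. At day 14, 2 were higher, Itga4 by 4.05 ± 0.31 (16.6-fold, limma adjusted p = 1.33e-05) and Cd44 by 1.45 ± 0.26 (2.74-fold, adjusted p = 0.00178). Itgb1, the integrin chain shared by most cell types, fell by 1.02, a call lost without day 0 replicate 2, day 14 replicate 1 or day 14 replicate 2 (adjusted p between 0.0555 and 0.0562), and with quantile normalization (adjusted p = 0.275), the authors' deposited table (0.281) or the slide as a fixed term (0.228). The counts were 2 higher and 1 lower at day 7 and 3 higher and none lower at day 28. The lower gene at day 7 was again Itgb1 (limma adjusted p = 0.0482). That call was lost in 11 of 12 omissions of a single array, all but day 7 replicate 2, and with quantile normalization, no filter on dim probes, the authors' deposited table, the slide as a fixed or random term, array weights, only the arrays compared, or without the 2 arrays with non-uniform spots.

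**Figure D5:**
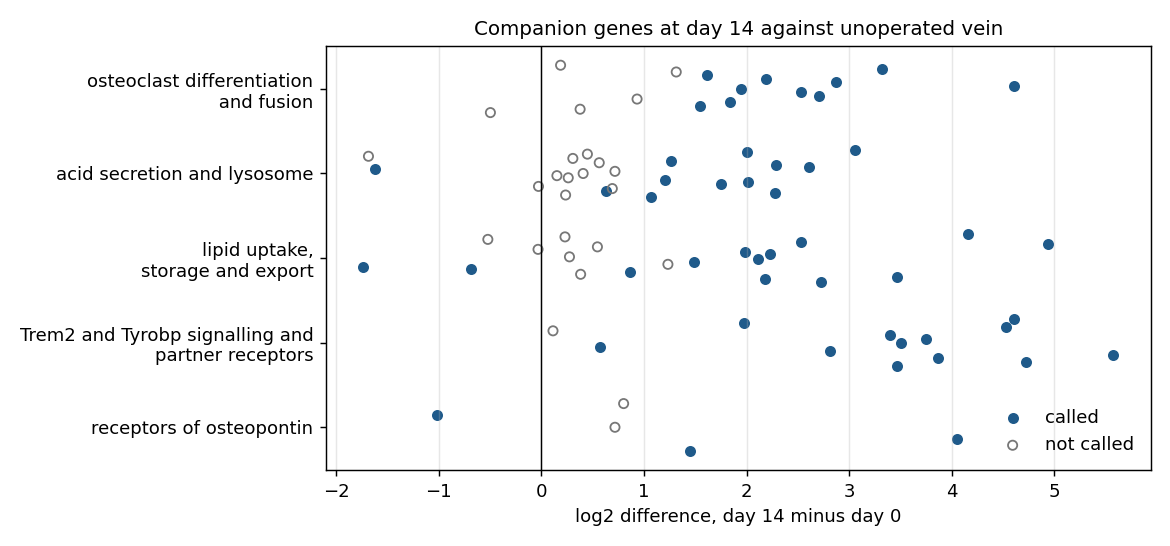
Log2 difference, day 14 minus day 0 (horizontal axis), of each tested gene of the 5 lists (points, in alphabetical order from bottom to top within a list; Apoe is in 2 lists); filled points were called at an adjusted p under 0.05. The 12 called genes of Trem2 and Tyrobp signalling reach 5.57 (Clec5a), and 4 called points lie below 0.

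Between graft days 4 genes of the lists were called, all lower on the later day, and they are named here after their values were seen. Of the 75 tested, 1 was lower at day 14 than at day 7, beside 1.88% of probes, 3 at day 28 than at day 14, beside 2.08%, and 1 at day 28 than at day 7, beside 1.03%, shares near the background. At day 28 against day 14, Apoe averaged 5.59 at day 28 and 6.97 at day 14 (difference -1.38 ± 0.34, limma adjusted p = 0.0481), Soat1 -1.40 at day 28 and 0.06 at day 14 (-1.47 ± 0.29, adjusted p = 0.0211), and the transcription factor Irf8, a brake on osteoclast formation, -1.15 at day 28 and 0.12 at day 14 (-1.26 ± 0.25, adjusted p = 0.0229). Car2, the carbonic anhydrase that supplies protons, averaged -0.94 at day 14 and 1.61 at day 7 (-2.54 ± 0.49, adjusted p = 0.0204), and it was also lower at day 28 than at day 7 (-2.27 ± 0.49, adjusted p = 0.0478). With the slide as a fixed term none of these calls held: adjusted p was 0.102 for Apoe, 0.109 for Soat1, 0.105 for Irf8, and 0.361 at day 14 and 0.995 at day 28 for Car2. Each call was also lost when some single arrays were left out: 8 of 12 for Apoe (adjusted p up to 0.170), 6 of 12 for Soat1 (each array of days 14 and 28, up to 0.0913) and 5 of 12 for Irf8 (all of day 14, and day 28 replicates 1 and 2, up to 0.108). For Car2 it was lost in 3 of 12 at day 14 (day 7 replicate 1, day 14 replicates 1 and 3, up to 0.0982) and in 9 of 12 at day 28 (up to 0.189). For Apoe the exceptions that kept the call were day 0 replicates 1 and 3 and day 7 replicates 2 and 3, and for Car2 at day 28 they were day 0 replicates 1 and 3 and day 7 replicate 2.

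The genes whose pattern over the 12 arrays was most like the mean of the 6 standardised members were the receptor Tgfbr1 (Pearson r = 0.997), Stap1, Nek6, Slc6a12, Ticam2, Itgb2, Cd300lf, Ccn4, A2m and Serpinb8 (r = 0.990 for the last). The step between day 0 and the graft days enters every one of these values. Over the 9 graft arrays alone the nearest were Ube2t (r = 0.992), Fam3c, Tec, Pzp, Nras, Nuf2, Firrm, Smpdl3a, Cep55 and Tbxas1 (r = 0.972 for the last), and no gene stood in both lists of 10. For single members over 12 arrays the nearest gene was Lrrc15 for Spp1 (r = 0.997), Abcb4 for Trem2 (r = 0.995), Bcl2a1 for Tyrobp (r = 0.997), Sel1l for Gpnmb (r = 0.979), Fam20c for Atp6v0d2 (r = 0.987) and Ap1g1 for Ctsk (r = 0.993).

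Among the members themselves, the 9 graft arrays separated pairs that the 12 arrays did not. Over 12 arrays every pair correlated at r = 0.843 or more. Over the 9 graft arrays Trem2 correlated with Atp6v0d2 at r = 0.873 and with Gpnmb at r = 0.809. With the macrophage marker mean, Tyrobp correlated at r = 0.948, Gpnmb at 0.690, Trem2 at 0.600 and Spp1 at 0.567. For Atp6v0d2 that r was 0.374 and for Ctsk -0.462. Ctsk ran against Spp1 at r = -0.797 and against Tyrobp at r = -0.699 on those arrays. The points share arrays, 75th-percentile scaling and the days of grafting, so these are descriptions of 9 samples.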

How the data were processed

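RNA of 12 rat vein samples (3 each at days 0, 7, 14 and 28) was hybridised to single-colour arrays. Each deposited scanner table gives intensity per spot, already background-corrected by Agilent Feature Extraction 11.0.1.1, per the submitters' processing notes, with quality flags as deposited. The authors' deposited table, in log2 units to judge by its range, served as an alternative; its normalization is not given in the sources used here, its column medians lay at 7.16, and each column matched its own array best (r from 0.9936 to 0.9992).

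From the intensity, log2 minus the 75th percentile of each array was computed. Outlier spots were dropped, which left 478 missing values, and repeated spots were averaged. A probe was tested if well above background on 3 or more arrays (21063 of 24684), with a gene represented by its brightest probe. Unversioned accessions were looked up in a RefSeq gene table: 14294 probes carried 1 symbol, 0 several and 10390 none. Group means were fitted with limma 3.58.1 (R 4.3.3) over all 12 arrays, with empirical Bayes (8 residual and 2.32 prior degrees of freedom) and Benjamini-Hochberg adjustment, an adjusted p under 0.05 being a call. The fit was tested on simulated data. Figures and summaries used Python 3.11.15, NumPy 2.4.6, pandas 2.3.3 and Matplotlib 3.10.9.

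The members and the companion lists were chosen with earlier results of these data known. Named companion genes are, per list, the 2 highest and the 2 lowest signed changes at day 14 among genes called, and those with a textbook role beside a member. Alternatives were normexp background correction (on median signals, since mean signals were not used here, offset 50), quantile normalization, no filter on dim probes, the authors' table, the slide as a fixed or random block, only the arrays compared, leaving out 2 arrays with many non-uniform spots, array weights, scaling to 15 macrophage markers (and, added after seeing the data, to 14 without Cd163), the mean of a gene's probes, and leaving out each array in turn. Slides were inferred from shared scan times, as no slide number was read. Each array had 71.9% to 82.6% of its 42136 gene spots well above background, and the 75th percentile lay at intensities of 494 to 991. The labels number every array as replicate 1, so 1 to 3 serve here as names only. Each array title carries its own code, and the design speaks of independent experiments. Nothing in the labels says that the codes stand for separate animals, so p-values reflect spread among arrays that may be technical repeats. The number of arrays limits the precision.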

Additional observations from a re-analysis of the deposited data

Results flagged for a closer look

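Atp6v0d2, the d2 subunit of the proton pump, differed between graft days: at day 14 it stood 1.51 higher than at day 7 on the log2 scale (limma, adjusted p = 0.0296), with 3 of 3 day 14 arrays above all 3 day 7 arrays. No other member passed this test between graft days in the main fit. The Atp6v0d2 call was lost without any single day 7 array and without some other single arrays. It was also lost with normexp background correction (limma adjusted p = 0.0596) and with the slide as a fixed term (0.361). When only the arrays of the 2 days were fitted, Trem2 was called in its place (adjusted p = 0.0312).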

How the results depend on the processing

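Outside the scaling to macrophage markers, the 18 differences of the 6 members from day 0 stayed above 0 in all 396 values of 22 alternatives, between 1.82 and 7.63. Scaled to macrophage markers, Ctsk fell to -0.57 at day 7 and -0.64 at day 14 against day 0. Under that scaling the day 14 differences from day 0 also turned negative for Atp6v0c (-2.80), Atp6v0d1 (-2.74), Cd44 (-1.98), Csf1 (-1.89), Ctsb (-0.83), Grb2 (-2.86), Src (-1.82), Syk (-1.46), Tcirg1 (-0.37), Tnfrsf11b (-2.12) and Tnfsf11 (-0.12), because the marker mean itself was higher on graft days. Without Cd163 in that mean, chosen after seeing the data, Ctsk was at -0.73 at day 7 and -0.93 at day 14 against day 0. Negative at day 14 were then Apoe (-0.26), Atp6v0c (-3.09), Atp6v0d1 (-3.03), Cd44 (-2.27), Csf1 (-2.18), Ctsb (-1.12), Grb2 (-3.15), Src (-2.10), Syk (-1.75), Tcirg1 (-0.66), Tnfrsf11b (-2.41) and Tnfsf11 (-0.41).

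The 1 member called higher at day 14 than at day 7 became 0 with normexp correction, with the slide as a fixed term and with macrophage scaling (with or without Cd163), and 3 with array weights; leaving out single arrays gave 0 to 2. With only the arrays compared it was again 1, but Trem2 in place of Atp6v0d2. Over all 21063 probes, the calls higher at day 14 than at day 7 were 290 in the main fit and 5436 with array weights. They were 22 with normexp, 11 with the fixed slide term, 58 with macrophage scaling and 454 with only the arrays compared. The 0 members called lower at day 28 than at day 14 became 4 with array weights, 3 with only the arrays compared, and 1 with quantile normalization or without the 2 arrays with non-uniform spots; leaving out single arrays gave 0 to 2. Over all 21063 probes, the calls lower at day 28 than at day 14 were 439 in the main fit, 9323 with array weights and 3411 with only the arrays compared. They were 456 with quantile normalization and 2404 without the 2 arrays with non-uniform spots. At day 28 against day 7, array weights called 3 members higher and 1 lower, against 0 and 0. Of all probes they called 5990 higher and 7450 lower, against 158 and 217 in the main fit. Those weights ran from 0.0760 to 25.4, with 1 array of each graft day carrying most of its group.

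Companion genes higher than at day 0 numbered 43 at day 7, 45 at day 14 and 44 at day 28. They were 27 at day 28 with normexp, 0, 20 and 16 at days 7, 14 and 28 with the slide as a fixed term, and 6, 4 and 4 with macrophage scaling (5, 1 and 4 without Cd163). Leaving out single arrays gave 35 to 48 at day 7, 40 to 48 at day 14 and 34 to 51 at day 28. Lower companion genes, 4, 4 and 2 at those days, became 2 at days 7 and 14 with quantile normalization and with the authors' table, 1 at day 7 with only the arrays compared, 0 at each day with the fixed slide term, and 51, 50 and 44 with macrophage scaling (52, 55 and 47 without Cd163). Leaving out single arrays gave 2 to 4 at day 7, 2 to 4 at day 14 and 2 at day 28. Over all 21063 probes, the higher calls at days 7, 14 and 28 were 36, 631 and 736 with the fixed slide term. With macrophage scaling they were 183, 156 and 214, beside 19280, 19643 and 18650 lower. With normexp 1474 probes were higher at day 28, against 3668 in the main fit. The cause of these shifts was not tested.

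No paired analysis was possible because the labels give every array the same replicate number. Day 0 replicate 3 and day 7 replicate 3 carried 460 and 393 non-uniform spots, against 2 to 11 elsewhere. No member was limited by background, while Tnfsf11, Olr1, Clec5a, Phex and Cd163 were dim on 1 or more day 0 arrays.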
